A study of Mus musculus with 24 samples.

Results

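Phase II conjugating enzymes attach a water-soluble group to drugs, bilirubin, steroids and the reactive products of oxidation, so that the conjugate can be exported and excreted. Glutathione S-transferases (Gst genes) add glutathione, UDP-glycosyltransferases (Ugt genes) add a sugar, most often glucuronic acid, and cytosolic sulfotransferases (Sult genes) add sulfate from the donor PAPS. The proximal tubule is the main site of such conjugation in the kidney, and in rodents several of the genes are known to depend on sex hormones. The set described here holds the protein-coding mouse genes of these 3 families by symbol (classes a, k, m, o, p, t and z of Gst, and every numbered Ugt and Sult gene, pseudogenes left out). The rule found 65 genes among 53392 in the quantification files: 22 Gst, 22 Ugt and 21 Sult genes.

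Messenger RNA was measured in kidneys of FVB mice of both sexes, an albino inbred strain, in 8 groups. Injured mice (IRI, labelled as acute kidney injury) and sham mice (labelled as without injury) gave proximal tubules (PTs) by microdissection and endothelial isolates (endo) by magnetic beads against CD31, an endothelial surface protein. There were 3 injured male, 3 sham male, 3 injured female and 3 sham female tubule samples, and 3, 3, 3 and 2 endothelial samples of the same groups. The mice carried no allele or agent by the labels, and their age and the time from injury to collection are not given in the sources used here. Sham male tubule sample 3 had been sequenced as 2 libraries, which were added together. By the labels the samples of a group come from separate mice, and endothelial and tubule samples share numbers that may mark the same mouse.

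Estimated reads per sample ranged from 32592517 to 54906972 and limit what can be seen of genes with few reads. Levels are given as TPM, reads per transcript length scaled to the same total in every library. Of the 65 genes, 40 reached a mean of 1 TPM in at least 1 group, 28 reached 10 TPM and 15 reached 100 TPM, and 6 had no read in any library. A filter on low counts left 45 for testing in tubules (20 Gst, 17 Ugt, 8 Sult) and 45 in endothelial isolates. The 20 genes not tested in tubules were Gstm3, Gstt4, Ugt2a1, Ugt2a2, Ugt2b1, Ugt2b35, Ugt2b36, Sult1c1, Sult1e1, Sult2a1, Sult2a2, Sult2a4, Sult2a5, Sult2a6, Sult2a7, Sult2a8, Sult3a1, Sult3a2, Sult4a1, Sult6b1. Of these, Sult1e1 alone reached a group mean of 1 TPM.

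Some libraries stood apart from their groups. Injured male tubule sample 3 correlated with the other injured male tubule samples at 0.906 and 0.920 over 14112 genes on a log2 scale, against 0.988 between those others. Injured male endothelial sample 2 stood apart likewise, at 0.874 and 0.882 against 0.989, and sham male endothelial sample 3 at 0.935 and 0.946 against 0.989. That sample had 1616 CPM (reads scaled to the same library total) of endothelial markers, against 408 and 428 CPM in the others of its group, and 9589 CPM of proximal tubule markers, against 15652 and 17217 CPM. The injured-tubule markers Havcr1, Lcn2, Krt20, Spp1 and Vcam1 summed to 1803 to 1914 CPM in injured female tubules and 1100 to 1369 CPM in sham female tubules, whereas the sums were 3392 to 4175 CPM in injured males and 186 to 324 CPM in sham males. Spp1 made up nearly all of these sums in females and in sham males. Havcr1 had 7.55, 26.1 and 7.44 CPM in injured female tubules and 1.73, 2.42 and 1.24 CPM in sham female tubules, and 31.5, 277 and 304 CPM in injured and 5.19, 4.09 and 3.29 CPM in sham male tubules. The median log2 change of the 5 markers was 5.61 after injury in males, with all 5 higher, and 2.24 in females, with none passing. Of all genes tested, 10.6% passed as higher after injury in males and 0.0109% in females. Between sham males and females the median of the 5 markers was 0.44, with 1 of the 5, Spp1, lower in males. The 10 proximal tubule markers summed to 8017 to 10546 CPM in injured male tubules and 17941 to 20579 CPM in sham male tubules, and to 11773 to 14318 CPM in injured and 14196 to 17875 CPM in sham female tubules. In such bulk samples, fewer cells of a type and less RNA per cell cannot be told apart, which applies to every level below.

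Phase II transcripts together made up 2743 ± 79.7 TPM in injured male tubules, 2800 ± 238 TPM in sham male tubules, 3399 ± 211 TPM in injured female tubules and 3897 ± 513 TPM in sham female tubules (mean ± SD, n = 3 each). The makeup differed more than the total. Gst transcripts summed to 753 ± 30.7 TPM in sham males and 2171 ± 302 TPM in sham females, while Ugt transcripts summed to 1641 ± 141 TPM in sham males and 1223 ± 247 TPM in sham females. Injured males had 1436 ± 183 TPM of Gst transcripts, and injured females had 1869 ± 99.1 TPM. Sult transcripts summed to 250 ± 44.9 TPM in injured and 406 ± 69.5 TPM in sham males, against 546 ± 60.0 TPM in injured and 503 ± 46.1 TPM in sham females.

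**Figure D1:**
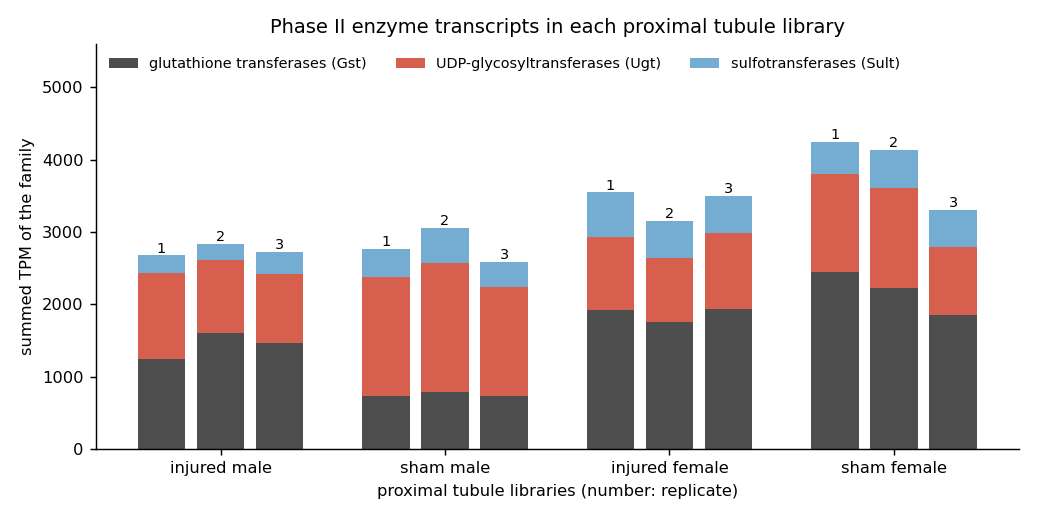
Summed TPM (vertical axis) of the Gst, Ugt and Sult genes in each of the 12 proximal tubule libraries, 1 stacked bar per library, in the order injured male, sham male, injured female, sham female. The Gst part of the bars is 736 to 789 TPM in sham males and at least 1239 TPM in every library of the other groups.

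A few genes carried most of each family. Gsta2, an alpha-class transferase that also reduces lipid hydroperoxides, made up 29.0% of Gst transcripts in injured male tubules, 47.3% in injured female tubules and 57.4% in sham female tubules, while in sham males Gstt2, a theta-class transferase, led with 18.7%. Among Ugt genes, Ugt2b38 led in males with 43.3% in injured and 45.7% in sham tubules, and Ugt1a2 led in females with 38.9% in injured and 47.0% in sham tubules. Sult1d1, which in mice sulfates catecholamines, held 82.9% to 87.0% of Sult transcripts in every tubule group, and Sult1c2 was second throughout. Gstz1, an isomerase of tyrosine breakdown, ranked second among Gst genes in sham males.

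Male and female sham tubules differed in 20 of the 45 genes tested, 7 higher and 13 lower in males, at an adjusted p under 0.05 (edgeR quasi-likelihood test, Benjamini-Hochberg adjustment over all genes). Of all 18369 genes tested, 5.8% were called in that comparison, 3.24% higher and 2.56% lower. The median log2 change, male over female, was -0.045 over the 45 genes and 0.013 over all genes tested. By family, 1 Gst gene was higher and 10 were lower in males, 6 Ugt genes were higher and 3 lower, and no Sult gene of the 8 tested passed.

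Alpha-class Gst genes were the main Gst transcripts that were low in sham males. Gsta2 had 57.2, 52.5 and 86.1 TPM in sham males, against 1512, 1233 and 993 TPM in sham females (log2 change -4.22, SE 0.25, adjusted p = 4.5e-06). The ranges are far apart, with no overlap. Gsta1, its neighbour on chromosome 9 and an enzyme of the same class, had 1.90, 1.37 and 1.74 TPM in sham males and 40.6, 30.9 and 30.1 TPM in sham females (log2 change -4.31, SE 0.77, adjusted p = 0.00659). Gsto1, an omega-class transferase that reduces dehydroascorbate and arsenicals, had 3.75, 2.44 and 4.62 TPM in sham males and 25.6, 26.0 and 22.9 TPM in sham females (log2 change -2.78, SE 0.32, adjusted p = 0.000399). In each of these genes all male samples lay below all female samples.

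The other 7 Gst genes that were lower in sham males were Gsta3, Gsta4, Gstk1, Gstm6, Gstm7, Gstt1 and Gstt3, with log2 changes between -2.53 for Gstm6 and -0.63 for Gstt1. Gstk1, a mitochondrial and peroxisomal transferase, averaged 52.3 ± 8.11 TPM in sham males and 101 ± 12.7 TPM in sham females (SD, n = 3 each). Gstm6 stayed under 1 TPM in every tubule library. When 1 library was left out, the calls of Gsta4, Gstk1, Gstm6, Gstt1 and Gstt3 were lost for at least 2 of the 12 libraries, and the highest adjusted p among those fits was 0.158, for Gstt3. The call of Gsta4 ended without sham female sample 1 or 3 or sham male sample 2 or 3, and that of Gstk1 without sham female sample 2 or sham male sample 1, at adjusted p up to 0.115 and 0.0674. Gstm7 has coding sequence close to Gstm2 and Gstm3, and for the 3 genes summed the log2 change was 0.087 (SE 0.46).

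One Gst gene went the other way. Gstp3, a pi-class gene on chromosome 19 beside Gstp1 and Gstp2, had 14.5, 9.93 and 15 TPM in sham males, and 0, 0.0795 and 0 TPM in sham females. Sham females gave 3 reads in all, against 1517 in sham males, a ratio of 441 with a 95% exact interval of 151 to 2140 for counting error. Its log2 change was 8.74 (SE 0.65, adjusted p = 2.43e-05), and the call held with each library left out in turn. Gstp1, the abundant pi-class gene, averaged 83.7 ± 9.35 TPM in sham males and 65.2 ± 7.63 TPM in sham females and did not pass.

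At the Ugt1a locus, on chromosome 1 from position 88055388 to 88220002 (GRCm38, plus strand), alternative first exons are joined to shared downstream exons, so that each promoter gives its own enzyme. The first exon of Ugt1a2 led in females and was nearly absent in males. Ugt1a2 had 0.539, 0.236 and 1.36 TPM in sham males, against 679, 706 and 341 TPM in sham females (log2 change -9.63, SE 0.70, adjusted p = 2.13e-05). It made up 0.283% of the locus's transcripts in sham males and 67.9% in sham females. No value in males came near any value in females.

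Ugt1a1, the enzyme that glucuronidates bilirubin, was also lower in males, at 0.0684, 0.227 and 0.615 TPM in sham males and 7.82, 7.96 and 4.59 TPM in sham females (log2 change -4.49, SE 0.62, adjusted p = 0.00132). Ugt1a9 was higher, at 30.7, 38.6 and 39.1 TPM in sham males and 18.7, 21.6 and 15.9 TPM in sham females (log2 change 0.97, SE 0.13, adjusted p = 0.00141). Ugt1a6b was higher by 0.93 (SE 0.23, adjusted p = 0.0338), a call that ended at adjusted p up to 0.133 without any 1 of 7 libraries, each of the sham and injured female samples or sham male sample 3. The locus summed to 246 ± 42.3 TPM in sham males and 833 ± 234 TPM in sham females, and counted as 1 gene it was lower in males (log2 change -1.92, SE 0.21, adjusted p = 0.000308). Ugt1a10, at 102 ± 18.7 TPM in sham males and 110 ± 14.4 TPM in sham females, did not pass, and neither did Ugt1a7c (log2 change -0.045) or Ugt1a8 (0.52).

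The promoters of 3 first exons that differed between the sexes are shown because the Ugt1a enzymes differ by promoter use. These are up to 250 bases before the start from RefSeq (GRCm38.p6), trimmed where a GENCODE gene begins, for Ugt1a2 (chr1:88200361-88200600, plus strand), Ugt1a1 (chr1:88211709-88211958, plus strand) and Ugt1a9 (chr1:88070529-88070778, plus strand). Capitals mark the half-site GTTAAT of the liver and kidney factor HNF1 on either strand.

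Ugt1a2: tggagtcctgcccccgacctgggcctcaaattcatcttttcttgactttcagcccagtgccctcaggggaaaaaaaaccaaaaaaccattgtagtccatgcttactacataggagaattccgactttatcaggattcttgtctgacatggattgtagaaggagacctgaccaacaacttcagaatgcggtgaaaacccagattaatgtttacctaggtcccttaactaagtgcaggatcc

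Ugt1a1: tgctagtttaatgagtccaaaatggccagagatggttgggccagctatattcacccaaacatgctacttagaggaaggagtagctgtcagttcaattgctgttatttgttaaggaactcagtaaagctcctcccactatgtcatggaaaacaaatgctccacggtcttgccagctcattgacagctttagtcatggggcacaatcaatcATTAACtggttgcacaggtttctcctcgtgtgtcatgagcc

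Ugt1a9: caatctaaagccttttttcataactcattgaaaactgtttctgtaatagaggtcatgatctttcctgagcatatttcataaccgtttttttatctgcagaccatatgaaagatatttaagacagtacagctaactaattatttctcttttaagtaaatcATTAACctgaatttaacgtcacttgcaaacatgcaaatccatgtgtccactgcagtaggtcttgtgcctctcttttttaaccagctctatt

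The half-site stood once in the Ugt1a1 window and once in the Ugt1a9 window and not in the Ugt1a2 window. Over the 250 bases before the start, 14 of 68 promoters of the set held it (20.6%), as did 6.43% of all 32851 promoters in the table; sequences were found for 57 of the 65 genes. The alignment of the Ugt1a2 window with those of Ugt1a1 and Ugt1a9 left 52.8% and 51.2% of bases identical. The androgen receptor half-site AGAACA was also searched, and stood in 19.1% of promoters of the set and 16.1% of all. The STAT5 site TTCNNNGAA stood in 5.88% and 7.02%, and the TATA box TATAAA in 19.1% and 12.4%. None of the Ugt1a2, Ugt1a1 and Ugt1a9 windows held them. A match is a description of letters and not evidence of binding.

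Ugt2b genes, whose enzymes glucuronidate steroids and many drugs, lay in a cluster on chromosome 5. Ugt2b38, the leading Ugt transcript of males, had 784, 795 and 671 TPM in sham males and 80.2, 51.0 and 56.3 TPM in sham females (log2 change 3.58, SE 0.27, adjusted p = 3.06e-05). Ugt2b37 had 123, 118 and 62.4 TPM in sham males and 2.71, 0.345 and 0.515 TPM in sham females (log2 change 6.40, SE 0.88, adjusted p = 0.00130). Ugt2b34 was opposite, at 0.313, 0.259 and 0.488 TPM in sham males and 8.33, 6.44 and 6.77 TPM in sham females (log2 change -4.35, SE 0.49, adjusted p = 0.000358). The 3 genes thus separated the sexes without overlap, and their calls held with each library left out. Ugt2b5, whose coding sequence is 97.0% identical to that of Ugt2b38, stayed under 1 TPM in every library.

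Promoters of the pair that was high in males are shown because the windows are so alike. The windows are Ugt2b38 (chr5:87424204-87424453, minus strand) and Ugt2b37 (chr5:87254805-87255038, minus strand), from the same source, with no capitals because no motif is marked.

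Ugt2b38: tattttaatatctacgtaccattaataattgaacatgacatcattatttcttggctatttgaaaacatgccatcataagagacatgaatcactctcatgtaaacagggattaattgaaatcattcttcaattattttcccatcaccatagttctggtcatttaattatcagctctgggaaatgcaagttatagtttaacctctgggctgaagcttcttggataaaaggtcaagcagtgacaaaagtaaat

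Ugt2b37: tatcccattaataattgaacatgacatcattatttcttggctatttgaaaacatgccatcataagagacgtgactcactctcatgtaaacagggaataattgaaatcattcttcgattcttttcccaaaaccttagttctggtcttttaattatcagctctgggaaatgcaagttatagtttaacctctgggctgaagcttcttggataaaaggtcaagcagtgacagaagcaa

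The 250 bases before Ugt2b37 and Ugt2b38 were 89.6% identical, and those of Ugt2b34 and Ugt2b38 54.8%. Ugt2b5 and Ugt2b38 shared 84.8% of bases.

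Outside those loci, Ugt8a, the enzyme that makes galactosylceramide, had 21.3, 27.6 and 23.8 TPM in sham males and 1.39, 0.202 and 0.222 TPM in sham females (log2 change 5.30, SE 0.94, adjusted p = 0.00643). Ugt3a1, which transfers N-acetylglucosamine in place of glucuronic acid, averaged 197 ± 30.9 TPM in sham males and 117 ± 15.4 TPM in sham females (log2 change 0.83, SE 0.19, adjusted p = 0.0253). The Ugt3a1 call ended without any 1 of the sham female samples or without sham male sample 1 or 2, with adjusted p up to 0.104. Of the Sult genes, Sult1d1 averaged 341 ± 60.0 TPM in sham males and 428 ± 48.5 TPM in sham females and did not pass.

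**Figure D2:**
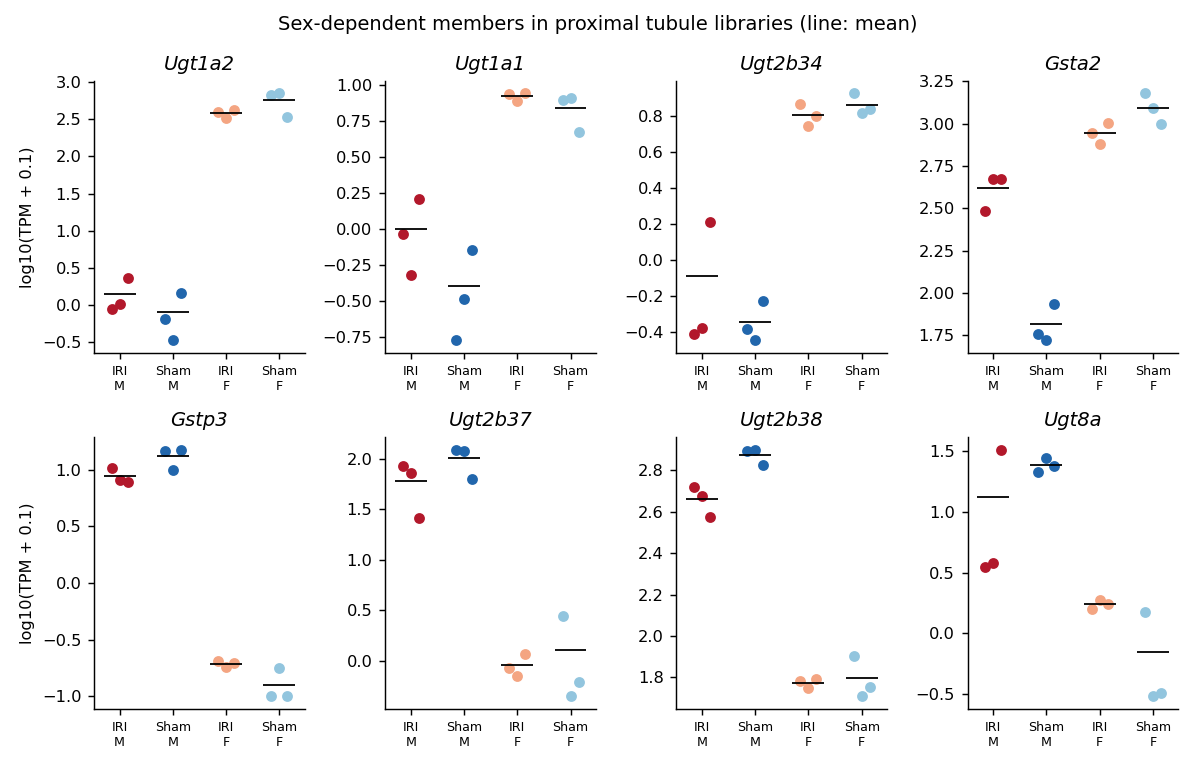
Level of 8 genes in each proximal tubule library, as log10(TPM + 0.1), in panels by gene, with injured male (IRI M), sham male, injured female (IRI F) and sham female libraries from left to right and a line at each group's mean. Ugt1a2, Ugt1a1 and Ugt2b34 are low in all male libraries, Gstp3, Ugt2b37 and Ugt2b38 are high in all male libraries, Gsta2 is higher in injured than in sham male libraries, and Ugt8a is high in all sham male libraries and in 1 injured male library.

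Injured male and injured female tubules also differed in 20 of the 45 genes, 9 higher and 11 lower in males, beside 23.3% of all genes called (12.8% higher, 10.5% lower). The median log2 change was -0.079 over the set and -0.061 over all genes. Of the 20 genes, 14 were also called in sham tubules, 70% of each list, and all 14 in the same direction. The mice of these comparisons are separate, but both comparisons came from 1 fit with a shared spread. The overlap over all genes was not counted, so this overlap is not read as particular to the set. Ugt1a2 had 0.777, 0.941 and 2.20 TPM in injured males and 393, 333 and 422 TPM in injured females (log2 change -8.02, SE 0.65, adjusted p = 6.63e-05). Ugt2b38 had 524, 474 and 375 TPM in injured males and 60.2, 55.8 and 61.6 TPM in injured females (log2 change 3.25, SE 0.27, adjusted p = 6.95e-05). The sexes thus did not overlap in either state for the leading Ugt gene of each.

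A further 6 genes were called between the sexes in injured tubules and not in sham tubules: Gstm5, Gstp1, Ugt1a7c and Ugt1a8 were higher and Sult1c2 and Sult1d1 were lower in injured males. Sult1d1 had 198, 175 and 248 TPM in injured males and 543, 444 and 437 TPM in injured females (log2 change -0.90, SE 0.16, adjusted p = 0.00412). Gstm5, a mu-class transferase, had 430, 394 and 239 TPM in injured males and 206, 203 and 152 TPM in injured females (log2 change 1.23, SE 0.27, adjusted p = 0.00911). Both pairs of groups stood apart without overlap. The call of Sult1c2 ended without injured male sample 2 (adjusted p = 0.0517), that of Ugt8a without injured male sample 3 or any 1 injured female sample (up to 0.0937), and that of Ugt1a7c without any 1 of injured female samples 1 to 3 or injured male samples 1 and 2 (up to 0.141). Gsta1, Gsta4, Gstm6, Gsto1, Ugt1a6b and Ugt3a1 were called in sham and not in injured tubules, and whether each difference changed is tested further on.

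**Figure D3:**
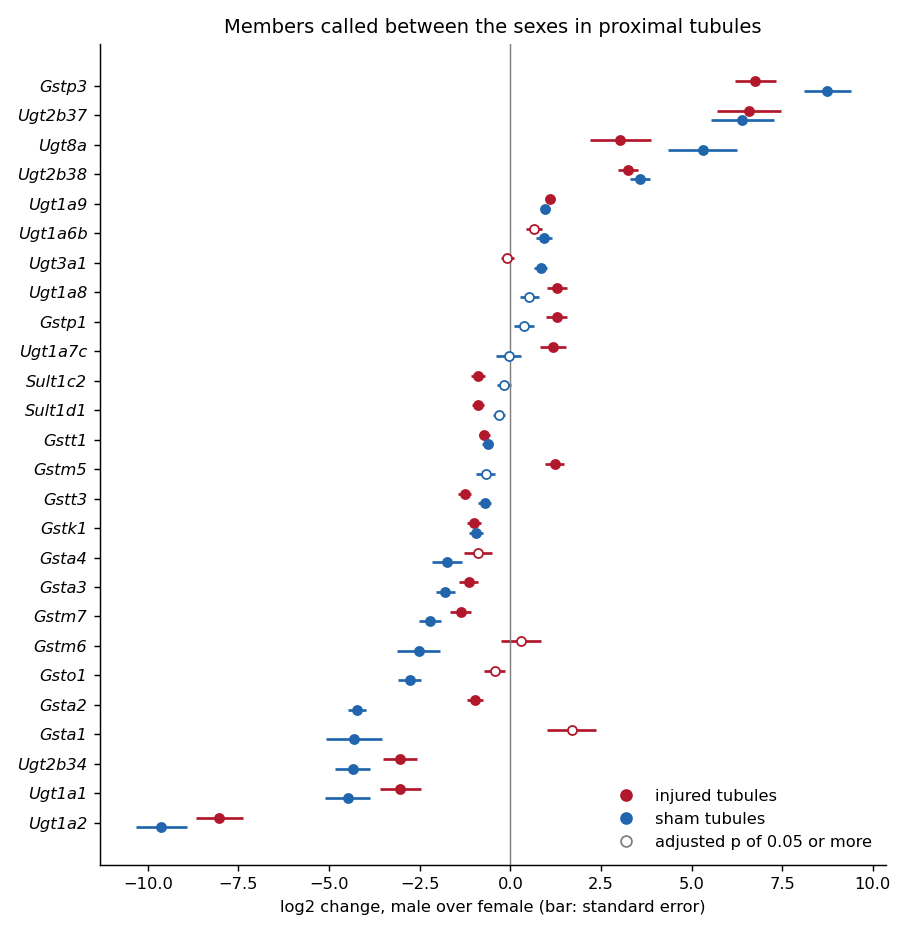
Log2 change, male over female (horizontal axis), with its standard error, for the 26 genes called between the sexes in injured or sham proximal tubules; injured above sham for each gene, and open circles where the adjusted p was 0.05 or more. Ugt1a2 lies at -8.02 in injured and -9.63 in sham tubules, and Gstp3 at 6.76 and 8.74.

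After injury in males, 5 Gst genes rose and 5 genes of the 3 families fell, 10 of 45 tested (22.2%), beside 19% of all genes called (10.6% higher, 8.43% lower). The share is close to that of all genes. The median log2 change, injured over sham, was 0.071 over the set and -0.026 over all genes. No Ugt or Sult gene tested was called higher. The injured and sham male samples of this comparison also enter the comparisons between the sexes.

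Gsta2 had 304, 474 and 471 TPM in injured males, against 57.2, 52.5 and 86.1 TPM in sham males (log2 change 2.43, SE 0.23, adjusted p = 0.000286). Gsta1 had 15.5, 102 and 21.7 TPM in injured males and 1.90, 1.37 and 1.74 TPM in sham males (log2 change 5.36, SE 0.80, adjusted p = 0.00262). Both genes were higher in every injured sample, although injured males still lay below injured females for Gsta2. The genes Gm3776 and Gm10639, outside the rule, are 99.7% and 97.4% identical to Gsta1 in aligned coding sequence, so reads may be divided among them. Gm3776 had 0.827, 34.5 and 1.70 TPM in injured males and at most 0.109 TPM in sham males, and like Gsta1 it was highest in injured sample 2. Summed, Gsta1 and Gsta2 gave a log2 change of 2.92 (SE 0.34, adjusted p = 0.000839). Between injured males and injured females the sum did not pass (log2 change -0.51, SE 0.32, adjusted p = 0.261).

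Gstm5 had 430, 394 and 239 TPM in injured males and 89.8, 103 and 95.6 TPM in sham males (log2 change 1.94, SE 0.27, adjusted p = 0.0019). Gsto1 had 12.2, 18.0 and 11.3 TPM in injured males and 3.75, 2.44 and 4.62 TPM in sham males (log2 change 2.03, SE 0.31, adjusted p = 0.00273). Each injured sample was above each sham sample. Gstp1, a detoxifying transferase of many epithelia, had 83.4, 226 and 238 TPM in injured males and 80.0, 94.3 and 76.7 TPM in sham males (log2 change 1.16, SE 0.29, adjusted p = 0.0204). Its groups overlapped, and the call ended without any 1 of the sham male samples or without injured male sample 2 (adjusted p up to 0.0871). The window before Gstm5 (chr3:107895604-107895820, plus strand) is shown because it was 1 of 3 promoters of the set that held the core TGACNNNGC of the antioxidant response element, the site read by NRF2, marked in capitals.

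Gstm5: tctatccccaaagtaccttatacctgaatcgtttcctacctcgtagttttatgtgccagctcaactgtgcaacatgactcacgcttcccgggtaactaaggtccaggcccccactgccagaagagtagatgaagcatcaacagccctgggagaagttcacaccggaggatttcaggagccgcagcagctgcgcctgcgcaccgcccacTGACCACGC

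The core stood in 3 of 68 promoters of the set (4.41%) and in 10.2% of all promoters, on either strand; Gsta3 and Gstm7 held the others.

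Ugt3a1 fell most among the genes that were lower after injury, with 74.7, 58.7 and 65.2 TPM in injured males and 208, 221 and 162 TPM in sham males (log2 change -1.54, SE 0.19, adjusted p = 0.00113). Its neighbour Ugt3a2, which by work on the human enzyme transfers glucose and xylose, had 200, 166 and 113 TPM in injured males and 301, 364 and 302 TPM in sham males (log2 change -0.92, SE 0.25, adjusted p = 0.0297). Sult1d1 had 198, 175 and 248 TPM in injured males and 334, 404 and 285 TPM in sham males (log2 change -0.66, SE 0.16, adjusted p = 0.02). Sult1c2 had 20.3, 19.8 and 48.2 TPM in injured males and 56.8, 70.5 and 52.6 TPM in sham males (log2 change -1.08, SE 0.20, adjusted p = 0.00714). In these 4 genes every injured sample lay below every sham sample. Gstt2 was lower by a log2 change of -0.47 (SE 0.13, adjusted p = 0.0306).

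The calls of Gstt2, Sult1d1 and Ugt3a2 were each lost without some single libraries, at adjusted p up to 0.110, 0.0788 and 0.0877. Sham male sample 1 or 2 and injured male sample 2 were among those libraries for all 3 genes; Gstt2 and Sult1d1 also lost theirs without injured male sample 1, Gstt2 and Ugt3a2 without sham female sample 2, Gstt2 without injured female sample 1, and Ugt3a2 without sham male sample 3. The proximal tubule markers also summed to less in injured than in sham male tubules, and their part in these decreases was not tested.

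**Figure D4:**
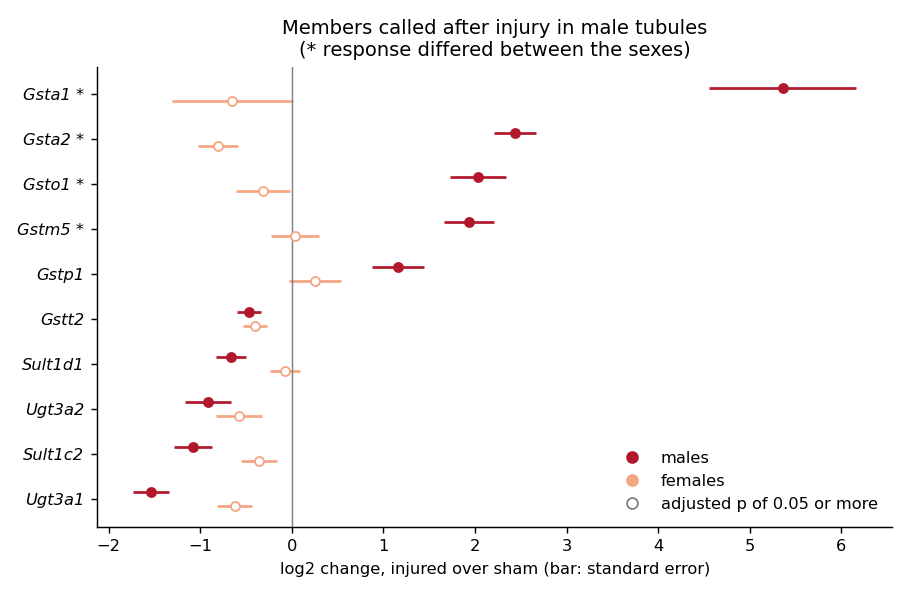
Log2 change, injured over sham (horizontal axis), with its standard error, for the 10 genes called after injury in male proximal tubules, males above females for each gene; open circles mark an adjusted p of 0.05 or more and asterisks the genes whose response differed between the sexes. The 5 Gst genes that rose in males lie between 1.16 and 5.36 there and between -0.80 and 0.25 in females.

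Injured male tubule sample 3 decided several of these values. Without it, 18 of 47 genes (38.3%) were called after injury in males, beside 42.5% of all genes in that fit. Ugt8a had 3.41, 3.69 and 32.6 TPM in injured males and 21.3, 27.6 and 23.8 TPM in sham males; its log2 change was -1.07 (adjusted p = 0.355) with all samples and -2.59 (SE 0.66, adjusted p = 0.00792) without sample 3. Sult1a1, a phenol sulfotransferase, had 5.57, 5.64 and 1.18 TPM in injured males and 2.03, 1.56 and 2.11 TPM in sham males, with log2 changes of 1.43 (adjusted p = 0.0759) and 1.91 (adjusted p = 0.000121) in these fits. In both genes sample 3 lay beyond the sham range on the side opposite to the rest of its group.

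Sult1e1, the estrogen sulfotransferase, was seen almost only in injured males. It had 9.65, 10.5 and 0.0927 TPM in injured male tubules, no read in sham male tubules, 0.0247, 0 and 0 TPM in injured female tubules and 0, 0.0497 and 0 TPM in sham female tubules. Samples 1 and 2 of the injured males carried nearly all reads, which is why the gene did not pass the filter. Its CPM over the group was at least 601-fold higher in injured than in sham male tubules, against a floor of 3 reads over the sham group. Without sample 3 it passed the filter and counts among the genes called in those fits; since that sample is the one that lacks it, nothing is read from that call. In endothelial isolates of injured males it had 0.05, 3.00 and 0.0241 TPM.

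In females, no gene of the set passed the test after injury, beside 0.0109% of all genes called (2 of 18369). The median log2 change was -0.24 over the 45 genes and 0.0035 over all genes. At an unadjusted p under 0.05 there were 10 genes, beside 11.1% of all genes. DESeq2 called 2 genes (Gsta2 and Gstm6, both lower) beside 3.75% of all genes, and a fit of the female tubule samples alone called 8 of 41 beside 6.9%. Gsta2 had 879, 760 and 1012 TPM in injured females, against 1512, 1233 and 993 TPM in sham females (log2 change -0.80, SE 0.22, adjusted p = 0.168). Ugt3a1 had 93.9, 93.4 and 79.8 TPM in injured females and 102, 115 and 133 TPM in sham females (log2 change -0.63, SE 0.19, adjusted p = 0.209). Gsta2 overlapped between the groups and Ugt3a1 did not.

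Sult1d1 in females had a log2 change of -0.076 (SE 0.16), with 543, 444 and 437 TPM in injured and 372, 455 and 457 TPM in sham tubules. Without injured male sample 3, whose spread enters the shared fit, 4 genes were called after injury in females (Gstz1, Ugt1a7c, Ugt3a1 and Ugt3a2, all lower), beside 2.59% of all genes. Distal tubule markers also summed to more in injured female tubules, at 5633 to 7307 CPM, than in sham female tubules, at 1839 to 2203 CPM. In injured male tubules they summed to 5113, 5163 and 2015 CPM, against 1559 to 3278 CPM in sham males. Of the 7 markers, 0 were called after injury in females, beside 0.0109% of all genes. In males 1 was higher and 1 lower, beside 10.6% and 8.43% of all genes. The part of these markers in the injury changes of either sex, or in the difference between the sexes, was not tested.

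The male and female responses to injury differed in 4 genes, all Gst genes with a larger change in males, beside 0.855% of all genes called (0.381% higher, 0.474% lower). The median difference was 0.023 over the 45 genes and -0.091 over all genes. Male minus female, the difference in log2 change was 6.01 for Gsta1 (SE 1.02, adjusted p = 0.0279), 3.24 for Gsta2 (SE 0.32, adjusted p = 0.00328), 2.34 for Gsto1 (SE 0.42, adjusted p = 0.0337) and 1.91 for Gstm5 (SE 0.37, adjusted p = 0.0409). Gsta1, Gsta2 and Gsto1 were also those lowest in sham males relative to sham females among the Gst genes above 1 TPM, and the same sham samples enter both values. Injured males reached 416 ± 96.9 TPM of Gsta2 and 13.8 ± 3.65 TPM of Gsto1, against 884 ± 126 and 23.1 ± 0.782 TPM in injured females. With Gsta1 and Gsta2 summed, injured males and females did not differ at the threshold (adjusted p = 0.261).

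The call for Gsta2 held with each library left out, at adjusted p up to 0.0177. Those for Gsta1, Gsto1 and Gstm5 were lost without any 1 sham or injured female sample and without sham male sample 1 or 2, at adjusted p up to 0.0965, 0.110 and 0.126. Gsto1 and Gstm5 lost theirs also without injured male sample 1 or 2, and Gstm5 without sham male sample 3. Without injured male sample 3, 14 of 47 genes (29.8%) were called, beside 30.5% of all genes, among them Ugt8a (-3.80, SE 0.86, adjusted p = 0.00652), Ugt1a7c (1.60, SE 0.23, adjusted p = 0.000531) and Sult1c2 (-1.02, SE 0.18, adjusted p = 0.0014).

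Genes that supply, process or export the conjugates were counted from lists. For glutathione conjugates, 5 of 7 tested genes that form or break down mercapturates and their precursors were higher in sham males than in sham females and none lower, beside 3.24% of all genes higher and 2.56% lower: Acy3 (log2 change 2.13), Kyat1 (2.02), Ggt1 (1.22), Anpep (0.85) and Nat8 (0.81). Ggt1 starts mercapturate formation by removing glutamate and Nat8 ends it by acetylation, whereas Acy3 deacetylates mercapturates and Kyat1 cleaves cysteine conjugates. After injury in males, 3 of the 7 were lower, beside 8.43% of all genes, Acy3 by -0.84, Nat8 by -0.74 and Ggt1 by -0.64. The microsomal transferase Mgst1 rose after injury in males (log2 change 2.39, SE 0.53, adjusted p = 0.0138). It was the 1 gene called of 4 tested in its list, beside 10.6% of all genes higher.

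For glucuronides, Ugdh, which makes UDP-glucuronic acid, was the 1 gene called of 4 in its list. It was higher in males in injured (1.27) and sham tubules (0.61) and higher after injury in males (0.43). The shares of all genes called higher were 12.8%, 3.24% and 10.6% in these comparisons. For sulfates, 3 of 8 genes of donor supply were lower after injury in males, beside the same 8.43% of all genes. These were the PAPS synthase Papss1 (-0.86), the phosphatase Bpnt1 (-0.94) and the sulfate transporter Slc26a1 (-1.21). None of the 3 was called in females, beside 0.0109% of all genes called there. The change of Papss1 differed between the sexes (-1.32, SE 0.17, adjusted p = 0.00676), and those of the others did not pass that test. The efflux pump Abcc4 was lower in males, by -1.18 in injured and -2.18 in sham tubules. It was the 1 of 5 pumps called in each, beside 10.5% and 2.56% of all genes lower. Single calls in lists this short are read as results on the gene only.

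Among regulators, the prolactin receptor Prlr was lower in sham males (-5.08, SE 0.69, adjusted p = 0.0012), as was Nr1i2, which encodes the xenobiotic receptor PXR (-2.90, SE 0.52, adjusted p = 0.00706), and the estrogen receptor Esr1 was higher (2.22, SE 0.27, adjusted p = 0.000549). After injury in males, Nfe2l2, which encodes NRF2, a factor that turns on antioxidant genes, was higher (1.95, SE 0.41, adjusted p = 0.0113), and Esr1 was lower (-1.83, SE 0.26, adjusted p = 0.00217). Of 8 NRF2 targets outside the 3 families and the glutathione list below, 6 were higher after injury in males, beside 10.6% of all genes. Among them were Srxn1 at 1.82, Hmox1 at 2.60 and Txnrd1 at 1.22. Me1 was lower at -0.55, and Nqo1 did not pass. None of the 8 passed in females, beside 0.0109% of all genes called there. All 8 were higher in injured males than in injured females, beside 12.8% of all genes, and the response itself differed between the sexes for Srxn1 alone (1.46, SE 0.28, adjusted p = 0.038). Of the regulators, Esr1 passed that test (-2.09, SE 0.37, adjusted p = 0.0331). Glutathione synthesis and recycling, a list that also holds NRF2 targets such as Gclc and Slc7a11, was counted apart. In it, 0 of 7 genes were higher after injury in males and 2 were lower, Ggct (-1.42) and Gss (-0.57). That stood beside 10.6% of all genes higher and 8.43% lower. Between injured males and females, 2 of the 7 were higher in males, Gclc (0.77) and Slc7a11 (3.05), and 0 were lower, beside 12.8% and 10.5% of all genes.

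The endothelial isolates carried much proximal tubule RNA. The 10 proximal tubule markers summed to 6000 to 19992 CPM there, against 8017 to 20579 CPM in tubules, and the 10 endothelial markers summed to 408 to 1726 CPM in endothelial isolates and 143 to 382 CPM in tubules. No marker of either list was at 0 throughout a group. In sham mice the 7 distal tubule markers summed to 8388 to 16270 CPM in endothelial isolates and 1559 to 3278 CPM in tubules, with 4 called higher in endothelial isolates. The 5 podocyte markers summed to 769 to 1392 CPM in endothelial isolates and 19.6 to 287 CPM in tubules, with 3 called higher. The part of these cell types in the differences that follow was not tested. In sham mice, 5 of 48 tested genes differed between endothelial isolates and tubules, beside 12.3% of all genes called (10.4% higher, 1.86% lower): Gstm2, Gsta4 and Sult1a1 were higher and Gstt2 and Sult1b1 were lower in endothelial isolates. The median log2 change was -0.28 over the set and 0 over all genes.

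Gstm2, a mu-class transferase, averaged 20.5 ± 4.15 TPM in sham male and 19.2 ± 5.23 TPM in sham female endothelial isolates, against 8.47 ± 6.68 and 3.45 ± 1.10 TPM in the tubules of those groups (log2 change 1.65, SE 0.33, adjusted p = 0.00238). Gsta4, whose enzyme clears the lipid peroxidation product 4-hydroxynonenal, averaged 16.8 ± 6.59 and 22.1 ± 2.41 TPM in sham male and female endothelial isolates, against 3.94 ± 1.15 and 13.4 ± 2.64 TPM in tubules (log2 change 1.15, SE 0.25, adjusted p = 0.00453). These 2 calls held with each sham library left out. The calls of Gstt2, Sult1a1 and Sult1b1 were lost for 1, 7 and 6 of the 11 sham libraries, sham female endothelial sample 1 among them each time, with adjusted p up to 0.0565, 0.179 and 0.141.

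**Figure D5:**
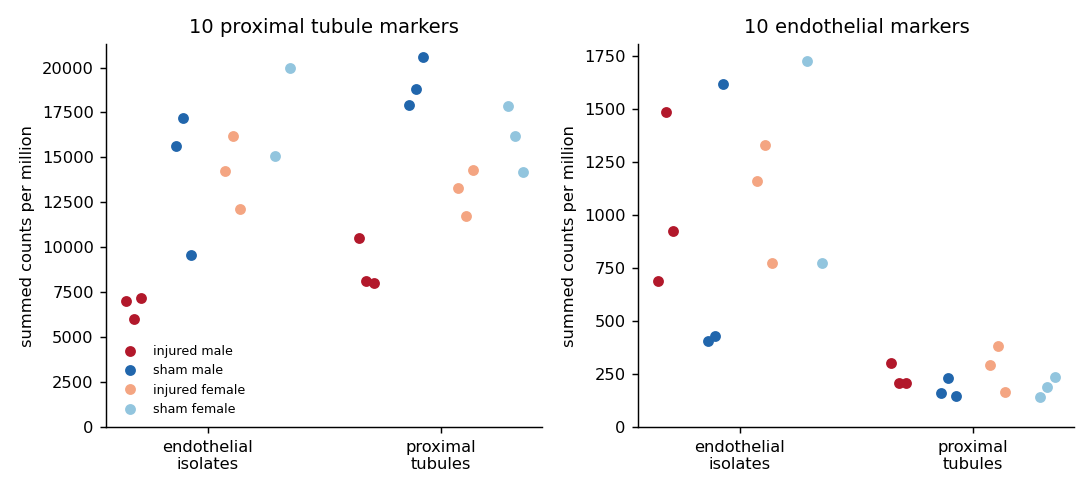
Summed CPM (vertical axes) of 10 proximal tubule markers (left) and 10 endothelial markers (right) in each library, endothelial isolates left of proximal tubules, coloured by group with injured male, sham male, injured female and sham female from left to right. Proximal tubule markers reach 19992 CPM in endothelial isolates and 20579 CPM in tubules, and endothelial markers are at least 408 CPM in endothelial isolates and at most 382 CPM in tubules.

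Between the sexes, sham endothelial isolates differed in 5 of 45 genes, beside 0.432% of all genes called (0.276% higher, 0.156% lower). Each was called in sham tubules too, and the same overlap over all genes was not counted. Ugt1a2 had 0.539, 0.535 and 0.272 TPM in sham males and 874 and 771 TPM in sham females (log2 change -10.67, SE 0.78, adjusted p = 0.000139). Ugt2b38 had 723, 939 and 429 TPM in sham males and 41.4 and 43.1 TPM in sham females (log2 change 4.22, SE 0.45, adjusted p = 0.00209). Ugt2b37 was higher, and Gsta2 and Ugt2b34 were lower, in males (log2 changes 6.66, -3.87 and -3.95). All 5 stayed called with the proximal tubule marker score as a covariate. Only Ugt1a2 stayed called with every library left out: Ugt2b37 and Ugt2b38 lost theirs without sham female sample 1 (adjusted p = 0.0583 and 0.0567), and Gsta2 and Ugt2b34 theirs without any 1 of 7 and 6 libraries (up to 0.182 and 0.314).

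In injured endothelial isolates, 6 genes differed between the sexes, beside 1.5% of all genes (0.663% higher, 0.834% lower). Each was called in injured tubules, and the same overlap over all genes was not counted. Ugt2b37 and Ugt2b38 were higher, and Ugt1a2, Ugt2b34, Gstm7 and Gstk1 lower, in males. For Gstm7 summed with Gstm2 and Gstm3, the log2 change was -0.24 (SE 0.25, adjusted p = 0.691). In injured tubules that sum gave -0.42 (SE 0.46, adjusted p = 0.544). The Gstm7 call in endothelial isolates also ended when only these groups were fitted. Ugt1a2 had 2.78, 0.395 and 2.13 TPM in injured males and 523, 545 and 380 TPM in injured females (log2 change -8.12, SE 0.69, adjusted p = 0.000415). With the proximal tubule marker score as a covariate, Ugt1a2 alone stayed called, at -6.98 (SE 0.59, adjusted p = 0.000918). The Ugt2b34 call ended without injured male sample 1, sham male sample 2 or any 1 injured female sample (adjusted p up to 0.111). The score was lower in injured males, whose markers summed to 6000 to 7180 CPM, than in injured females, at 12144 to 16215 CPM. These ranges did not overlap, so the covariate fit separates the score from sex poorly, and nothing is read from the lost calls.

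After injury, 2 genes were called in male endothelial isolates, beside 0.864% of all genes (0.537% higher, 0.326% lower). Gsto1 had 31.0, 27.0 and 20.2 TPM in injured males and 8.74, 8.06 and 11.3 TPM in sham males (log2 change 1.42, SE 0.25, adjusted p = 0.031). Ugt3a1 had 47.8, 34.8 and 46.5 TPM in injured males and 188, 219 and 97.1 TPM in sham males (log2 change -2.12, SE 0.37, adjusted p = 0.031). Neither pair of groups overlapped, but leaving out any 1 of most libraries ended both calls (adjusted p up to 0.169 and 0.146). With the proximal tubule marker score as a covariate neither gene was called. The markers summed to 6000 to 7180 CPM in these injured males and 9589 to 17217 CPM in the sham males, without overlap. That fit therefore separates the score from injury poorly, and nothing is read from the lost calls. In male tubules 8 of the 10 markers were themselves lower after injury, beside 8.43% of all genes. Without injured male sample 2, 7 genes were called, beside 1.75% of all genes, and without sham male sample 3, 9 were called, beside 3.6%.

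Gsta1 and Gsta2 had log2 changes of 5.58 (adjusted p = 0.0513) and 2.47 (adjusted p = 0.0801) in male endothelial isolates, and Gsta1 had 153, 3.03 and 27.0 TPM in injured and 1.29, 1.64 and 0.873 TPM in sham males. Gsta2 had 732, 91.3 and 349 TPM in injured and 44.1, 67.9 and 31.3 TPM in sham males. Sample 2 was the lowest of the injured group for both genes, and every injured sample was above every sham sample. In females no gene of the set passed after injury, as none of all genes did (0%), and DESeq2 called none of the set. At an unadjusted p under 0.05 there were 4 of the 45 genes tested, beside 2.39% of all genes. No gene of the set differed between the sexes in its response in endothelial isolates, beside 0% of all genes. For that difference 16 of 45 genes had an unadjusted p under 0.05, beside 6.5% of all genes.

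The authors' deposited tables of DESeq2 comparisons hold 50 of the 65 genes. In the authors' deposited table for male tubules after injury, 13 passed an adjusted p of 0.05, including the 10 called here, beside 4101 of all genes. In the authors' deposited table for sham tubules by sex 19 passed, 18 of them called here, beside 1820 of all genes. In that for injured tubules by sex 23 passed, including the 20 called here, beside 4594 of all genes. The authors' deposited table for injury in female tubules had none of the set, beside 497 of all genes. The authors' deposited tables for endothelial isolates had 9 genes of the set after injury in males, 15 between sham and 11 between injured sexes. Of these, 2, 5 and 6 were called here, and all genes passing there numbered 1082, 422 and 1050. None of the set passed after injury in females, beside 57 of all genes. No gene called in both had opposite directions. How many genes the authors tested is not given here, so these counts do not show a share particular to the set.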

How the data were processed

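RNA from proximal tubules and CD31-selected endothelial isolates was sequenced after poly(A) selection, per the labels' protocols. The authors deposited Salmon 0.13.1 quantifications on GRCm38, per the submitters' processing notes, holding estimated counts and TPM per transcript. The authors also deposited 8 tables of DESeq2 comparisons with log2 fold changes and p-values, per the file headers and processing notes. Here the estimated counts of a gene's transcripts were added and rounded to whole numbers, the 2 libraries of sham male tubule sample 3 were added, and TPM were summed per gene. edgeR 4.0.16 (R 4.3.3) was run with TMM scaling, filterByExpr (minimum count 10, minimum total 15) and its quasi-likelihood test, with 1 mean per group, separately for the 12 tubule and 11 endothelial samples and jointly for all 23. Benjamini-Hochberg adjustment covered all genes, and an adjusted p under 0.05 was called. Depth was 32592517 to 54906972 estimated reads per sample, and intervals and the floor of 3 reads cover counting error only.

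The set and all gene lists were chosen with earlier results of these data known. Named genes are those called that are among the 6 largest log2 changes of a comparison in either direction with at least 1 CPM, and the 2 most abundant of each family in sham samples. Genes given beyond that rule were chosen after their values were seen. The alternatives were DESeq2 1.42.0, RLE scaling, no filter, length offsets, fits of the compared groups alone and a replicate block. In the joint fit that block was the number shared by an endothelial and a tubule sample. Others were either library of sample 3, a tubule marker covariate, summed close paralogs and leaving out each library. The summing used coding sequences at least 85% identical and was specified in that form after seeing the data. Same-numbered samples of 1 isolation deviated with correlations from -0.45 to 0.45, so their numbers were not taken to pair them.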

Additional observations from a re-analysis of the deposited data

Results flagged for a closer look

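The change after injury differed between males and females in tubules for 4 Gst genes, by a test of the difference itself (edgeR quasi-likelihood interaction, adjusted over all genes). The difference in log2 change, male minus female, was 6.01 for Gsta1, 3.24 for Gsta2, 2.34 for Gsto1 and 1.91 for Gstm5. The change was 5.36 in males and -0.65 in females for Gsta1, 2.43 and -0.80 for Gsta2, 2.03 and -0.31 for Gsto1, and 1.94 and 0.031 for Gstm5. Every injured male sample was above every sham male sample for these genes. Injured-tubule markers summed to 186 to 324 CPM in sham males and 1100 to 1369 CPM in sham females, mostly from Spp1, the 1 of the 5 markers called between them, and the part of that difference in these values was not tested.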

How the results depend on the processing

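With all samples of an isolation fitted together, 72 pairs of a gene and a comparison were called. With 1 library left out, 699 of these calls kept their direction and threshold and 147 lost the threshold; under the other settings 480 kept both, 70 lost the threshold and 6 reversed. All reversals came from summing close paralogs: Gstm7 became 0.087 with its set, Ugt1a6b and Ugt1a9 -1.92 in sham tubules, and Ugt1a7c, Ugt1a8 and Ugt1a9 -1.10 in injured tubules, since the locus then counts as 1 gene. Fits of the compared groups alone called 2 genes after injury in male tubules, 8 in female tubules, 12 between injured sexes and 0 after injury in male endothelial isolates. DESeq2 called 2 genes after injury in female tubules, 11 after injury in male endothelial isolates, 12 and 11 between sham and injured endothelial sexes and 8 between isolations. Without the filter on low counts, endothelial counts were 11 after injury in males, 10 between sham and 10 between injured sexes, and 1 for the difference in response. Length offsets left 0, and the tubule marker covariate 0, after injury in male endothelial isolates, and the covariate left 1 between injured sexes. The replicate block gave 1 gene for the difference in response in tubules, 1 after injury in male endothelial isolates and 3 between sham endothelial sexes. Between isolations, the block was the number shared by endothelial and tubule samples, which may mark the mouse, and that fit gave 4 genes. Deviations of same-numbered samples correlated from -0.73 to 0.81 between isolations.

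Leaving out 1 library gave 6 (injured male sample 2) to 18 (injured male sample 3) genes after injury in male tubules, 0 to 4 (injured male sample 3) in female tubules, 14 to 24 between sham sexes, 19 to 26 between injured sexes and 1 to 14 for the difference in response, 1 without any 1 sham or injured female sample or sham male sample 1 or 2, and 2 without injured male sample 2. In endothelial isolates the ranges were 0 to 9 after injury in males, 2 (sham female sample 1) to 11 (injured male sample 2) between sham sexes, 5 to 9 between injured sexes, and 2 (sham female sample 1) to 7 between isolations. All-gene counts moved too: without injured male tubule sample 3, 42.5% of all genes were called after injury in males and 30.5% for the difference in response, against 19% and 0.855%. For the other fits of this section the share of all genes does not stand beside the counts. Those counts therefore do not show a change particular to the set. The causes of the shifts in counts were not tested. Leaving out injured samples in the joint fit was not run. Genes with few reads, and the 2 sham female endothelial samples, limit what could be called.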

Other observations

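Gm10639, 98.5% identical to Gsta2 in aligned coding sequence, had 10.4, 27.8 and 13.4 TPM in injured male tubules, 1.91, 1.02 and 2.12 TPM in sham male tubules, 26.7, 23.1 and 22.4 TPM in injured female tubules and 52.8, 29.3 and 21.5 TPM in sham female tubules. Gm3776 had at most 0.292 TPM in female tubules, where Gsta1 had 22.1 to 40.6 TPM. Sult1e1 gave 1951 reads in injured male and 2 in injured female tubules, a ratio of 938 with a 95% exact interval of 259 to 7753 for counting error.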
